A study of Mus musculus with 6 samples.

Results

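The 8 genes described here encode regulators of G protein signalling: Rgs1, Rgs2, Rgs3, Rgs10, Rgs14, Rgs16, Rgs18 and Rgs19. They were taken by symbol from a table of 29199 genes, and the family was selected on its measured levels, because Rgs2 was abundant in regulatory T cells (Treg) and lower when the Treg had been co-injected with HP1α-deficient conventional CD4+ T cells (Tconv). The difference between groups therefore entered the choice. It is given below as a description, with no p-value for any single one of the 8 genes, and counts of them past a threshold are printed only beside the share of all genes.

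Treg were sorted from the spleen 3 weeks after lethally irradiated hosts, either C57BL/6 J or B6 mice carrying CD45.1, had received C57BL/6 J bone marrow together with B6D2F1 marrow, which is semi-allogeneic. They were gated as CD45.1-CD45.2+Thy1.1+ cells. All Treg were WT and came from B6 Foxp3-Thy1.1 mice, in which Foxp3 drives the Thy1.1 marker. Before transfer they had been expanded with IL-2, TGF-β and anti-CD3/CD28 beads for 3 days, then cultured without beads for 5 to 7 days. The groups differed in the naive Tconv injected with them. In one group, Treg with WT Tconv, these came from control littermates. In the other, Treg with HP1α KO Tconv, they came from mice in which CMV-cre had deleted the gene for HP1α, a heterochromatin protein, in the germline. The study used sex-matched mice of 6 to 12 weeks on a mixed 129/Sv and C57BL/6 background as the source of Tconv. It states that male mice were used with its sequencing in mind. Each group had 3 libraries of total RNA, and nothing in the sources used here says which of them came from separate mice, so p-values measure the spread between these libraries, which may be partly technical. The libraries are called WT replicates and KO replicates below, by the genotype of the Tconv.

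RGS proteins shorten signals from G protein-coupled receptors. They bind the activated G protein α subunit and speed its hydrolysis of GTP, which returns the subunit to its inactive state. In lymphocytes they are best known for limiting responses to chemokines, and the transcripts of several of them are induced by T cell activation. Family members differ in the α subunits they prefer: Rgs2 acts mainly on the Gq class, whereas Rgs1 and Rgs16 act on Gi and Gq.

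The libraries held 87421755 to 119078882 estimated counts each. All 10 listed Treg and T cell markers, Foxp3 and Ikzf2 among them, were detected in every library, and their summed level was 6003 to 6939 CPM (counts scaled to a library total of 1000000) with WT Tconv and 5878 to 6285 CPM with HP1α KO Tconv. Of the 10, Ctla4 (1236 ± 119 and 948 ± 130 CPM) and Il10 (184 ± 18.2 and 128 ± 26.7 CPM; SD, n = 3 each), named after their values had been seen, were lower with HP1α KO Tconv without overlap, where 11.6% of all genes tested were, and the other 8 overlapped. A library of each group stood apart. The chi-square of counts per degree of freedom was 111 and 119 between WT replicate 3 and the others of its group, which differed from each other by 21.6, and 142 and 177 between KO replicate 2 and the others of its group, which differed by 29.6. For WT replicate 3, the summed level of 9 red cell genes was 6355 CPM, against 398 to 733 CPM in the other 5 libraries. The 10 neutrophil genes summed to 1886 CPM, against 43.7 to 229 CPM, and the 10 monocyte and macrophage genes to 184 CPM, against 13.9 to 48.9 CPM. KO replicate 2 was lowest in Foxp3, at 154 CPM against 200.1 to 252 CPM in the other 5 libraries. It was also lowest in Il2ra (121 CPM), Cd4 (688 CPM) and Cd3e (147 CPM). It was highest in Tnfrsf18, at 578 CPM against 392 to 441 CPM, and in Cd3g, at 768 CPM against 623 to 729 CPM. Its sum over the 10 Treg and T cell markers, 6242 CPM, lay between those of KO replicates 1 and 3. These genes were named after their values had been seen. In bulk RNA, fewer cells of a type and less RNA per cell cannot be told apart.

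Rgs1, Rgs2 and Rgs18 lie close together on chromosome 1 of the GRCm39 assembly, all on the minus strand, with Rgs13 between Rgs2 and Rgs1. Rgs2 spans 143875076 to 143879899 and Rgs1 spans 144118034 to 144124980. Rgs16, on the plus strand at 153616091 to 153621228, lies on the same chromosome, 9736 kb from the start of Rgs2. Rgs3 is on chromosome 4, Rgs10 on chromosome 7, Rgs14 on chromosome 13 and Rgs19 on chromosome 2. The 250 bases upstream of the canonical start of the 3 most abundant members are shown. They were read from GRCm39 at chr1:143879900-143880149 (minus strand), chr1:144124981-144125230 (minus strand) and chr1:153615841-153616090 (plus strand), and capitals mark TGACG, the core of the cAMP response element, and CCAAT, on either strand.
Rgs2: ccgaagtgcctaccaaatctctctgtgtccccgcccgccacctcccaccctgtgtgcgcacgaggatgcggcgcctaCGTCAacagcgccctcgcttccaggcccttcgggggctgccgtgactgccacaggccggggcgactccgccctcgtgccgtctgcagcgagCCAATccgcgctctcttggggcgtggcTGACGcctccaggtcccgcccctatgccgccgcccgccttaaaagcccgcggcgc
Rgs1: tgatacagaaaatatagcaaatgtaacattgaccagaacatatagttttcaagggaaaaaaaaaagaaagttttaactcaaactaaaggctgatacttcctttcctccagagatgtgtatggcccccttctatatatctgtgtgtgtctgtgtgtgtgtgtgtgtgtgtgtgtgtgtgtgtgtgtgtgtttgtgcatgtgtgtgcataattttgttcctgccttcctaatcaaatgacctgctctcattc
Rgs16: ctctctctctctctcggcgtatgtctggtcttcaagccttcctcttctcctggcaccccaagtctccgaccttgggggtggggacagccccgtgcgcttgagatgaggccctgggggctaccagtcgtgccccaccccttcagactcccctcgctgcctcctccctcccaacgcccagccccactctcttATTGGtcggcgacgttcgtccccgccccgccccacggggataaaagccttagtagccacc

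The promoter windows differed in base composition, with 71.2% G and C for Rgs2, 64.8% for Rgs16 and 38.4% for Rgs1. That of Rgs2 held 2 TGACG sites, one on each strand, and 1 CCAAT. At least 1 TGACG was found in 18% of the windows of 21757 protein-coding genes and 2 or more in 4.01%, and CCAAT was found in 36.5%. That of Rgs16 held 1 CCAAT and no TGACG, and that of Rgs1 held neither. The Rgs1 window had 2 matches to GGAAA, the core of NFAT sites, which was found in 58% of windows and in neither that of Rgs2 nor that of Rgs16. None of the 8 windows held the full element TGACGTCA, which contains TGACG and was found in 1.7% of windows, or the AP-1 site TGANTCA, found in 6.18%. A match describes the letters and does not show binding.

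Levels were compared between genes per kilobase of exonic sequence. Rgs1 was the most abundant, at 319 CPM per kb ± 40.1 (SD, n = 3) with WT Tconv and 261 ± 25.4 CPM per kb with HP1α KO Tconv. Rgs2 was at 187 ± 8.46 and 119 ± 15.2 CPM per kb, and Rgs16 was at 147 ± 22.7 and 148 ± 31.1 CPM per kb. Rgs2 thus stood above Rgs16 in each library with WT Tconv, where its lowest value was 178 and the highest of Rgs16 was 169.7 CPM per kb. With HP1α KO Tconv the ranges of the 2 genes overlapped, at 106 to 136 CPM per kb for Rgs2 and 117 to 179 CPM per kb for Rgs16. Rgs10, a small protein that acts on Gi subunits, followed at 44.3 ± 1.02 and 48.2 ± 3.08 CPM per kb. Rgs3 at 18.0 ± 1.44 and 21.1 ± 0.855 CPM per kb and Rgs19 at 17.4 ± 0.0884 and 19.2 ± 2.24 CPM per kb were neighbours whose ranges overlapped in both groups. They did not overlap per kb of the longest transcript, where Rgs3 was at 39.1 to 50.8 and Rgs19 at 26.0 to 32.8 CPM per kb over all libraries, or of the canonical one. Rgs14 was lower, at 11.0 ± 0.643 and 13.2 ± 1.36 CPM per kb, and Rgs18 was far below the others, at 0.343 ± 0.393 and 0.184 ± 0.0968 CPM per kb. The order of the 8 means over all libraries was the same when the longest or the canonical transcript replaced the union of exons. The gaps between genes were not. With the canonical transcript these means went from 289.9 to 524 CPM per kb for Rgs1, 46.3 to 83.1 for Rgs10 and 19.6 to 54.7 for Rgs3. They went from 18.3 to 28.2 CPM per kb for Rgs19, 12.1 to 18.2 for Rgs14 and 153 to 184 for Rgs2. That of Rgs16 stayed at 148 CPM per kb.

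**Figure D1:**
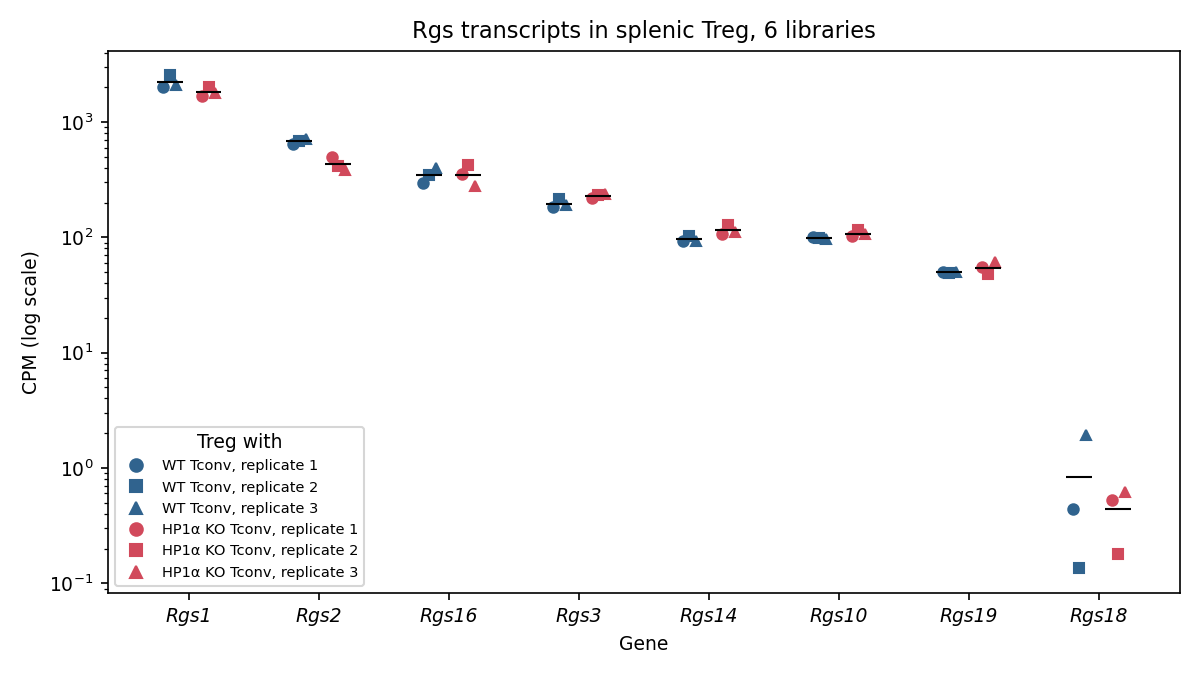
CPM of the 8 Rgs genes (log axis) in each of the 3 libraries of Treg with WT Tconv (blue) and the 3 of Treg with HP1α KO Tconv (red), with marker shape for the replicate number and a black line at the group mean. Rgs2 lies at 645 to 705 CPM in blue and 384 to 492 CPM in red, and Rgs18 lies under 2 CPM throughout.

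Rgs2 had 645, 685 and 705 CPM in replicates 1, 2 and 3 of Treg with WT Tconv and 492, 418 and 384 CPM in those of Treg with HP1α KO Tconv. Every library with HP1α KO Tconv was below every library with WT Tconv. The means were 678 ± 30.7 CPM with WT and 431 ± 55.0 CPM with KO Tconv (SD, n = 3), which is 0.636 times the level, and the log2 fold change in edgeR was -0.65 ± 0.0989 (SE). WT replicate 3, the library with the red cell and myeloid transcripts, had the highest value, and without it the log2 fold change was -0.62. It was -0.63 without KO replicate 2. The part of other cells in the level of Rgs2 was not tested. Gm41964, on the opposite strand and absent from the genes with deposited counts, overlaps 11.3% of the exonic bases of Rgs2. This bears on the counts of Rgs2 only if strand was not used in counting.

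Rgs1, the neighbour of Rgs2 on the chromosome, is known as a brake on lymphocyte migration towards chemokines. It was at 2021, 2533 and 2085 CPM with WT Tconv and at 1664, 2009 and 1772 CPM with HP1α KO Tconv. The groups did not overlap, but the gap was narrow, since the highest library with HP1α KO Tconv was at 2009 CPM and the lowest with WT Tconv at 2021 CPM. The log2 fold change was -0.29 ± 0.113 (SE), and it was -0.17 without WT replicate 2, -0.33 without WT replicate 3 and -0.37 without KO replicate 2.

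Rgs16, which is induced in activated T cells and also dampens chemokine responses, was at 293, 347 and 400 CPM with WT Tconv and at 352, 422 and 276 CPM with HP1α KO Tconv. The groups overlapped over most of their range, and the log2 fold change was 0.01 ± 0.18 (SE). Its sign changed without WT replicate 1 (-0.08) and without KO replicate 2 (-0.14), and it was 0.13 without WT replicate 3. Of the exonic bases of Rgs16, 18.7% overlap Gm28513 on the opposite strand, which had 287 counts over all libraries, and whether strand was used in counting is not given in the sources used here, although the library kit keeps strand.

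The other members with substantial levels had positive log2 fold changes. Rgs3, a member with long and short isoforms, was at 183, 213 and 190.3 CPM with WT Tconv and at 220, 230.5 and 238 CPM with HP1α KO Tconv. The groups did not overlap, and the log2 fold change was 0.23 ± 0.0765 (SE), with 0.21 without WT replicate 3 and 0.23 without KO replicate 2. Rgs14, which carries a second Gα-binding motif beside its RGS domain and acts also as a scaffold for Ras and Rap, was at 93.7, 103 and 92.2 CPM against 107, 129 and 110 CPM. Each library with HP1α KO Tconv was above each with WT Tconv, and the log2 fold change was 0.26 ± 0.0883 (SE), with 0.23 without WT replicate 3 and 0.18 without KO replicate 2.

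Rgs10 was at 101, 98.1 and 96.9 CPM with WT Tconv and at 102, 115 and 106 CPM with HP1α KO Tconv. The groups were separated by about the rounding of these values, and the log2 fold change was 0.12 ± 0.0689 (SE), with 0.11 without WT replicate 3 and 0.07 without KO replicate 2. Rgs19, also called GAIP, acts on Gi subunits and was at 49.7, 49.2 and 49.5 CPM against 55.1, 47.9 and 60.6 CPM. The 3 libraries with WT Tconv were nearly equal and lay within the range of the others, and the log2 fold change was 0.14 ± 0.0904 (SE). It was 0.14 without WT replicate 3, 0.23 without KO replicate 2 and 0.06 without KO replicate 3. Rgs19 shares 15.8% of its exonic bases with Tcea2 on the opposite strand, which bears on its counts only if strand was not used in counting.

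**Figure D2:**
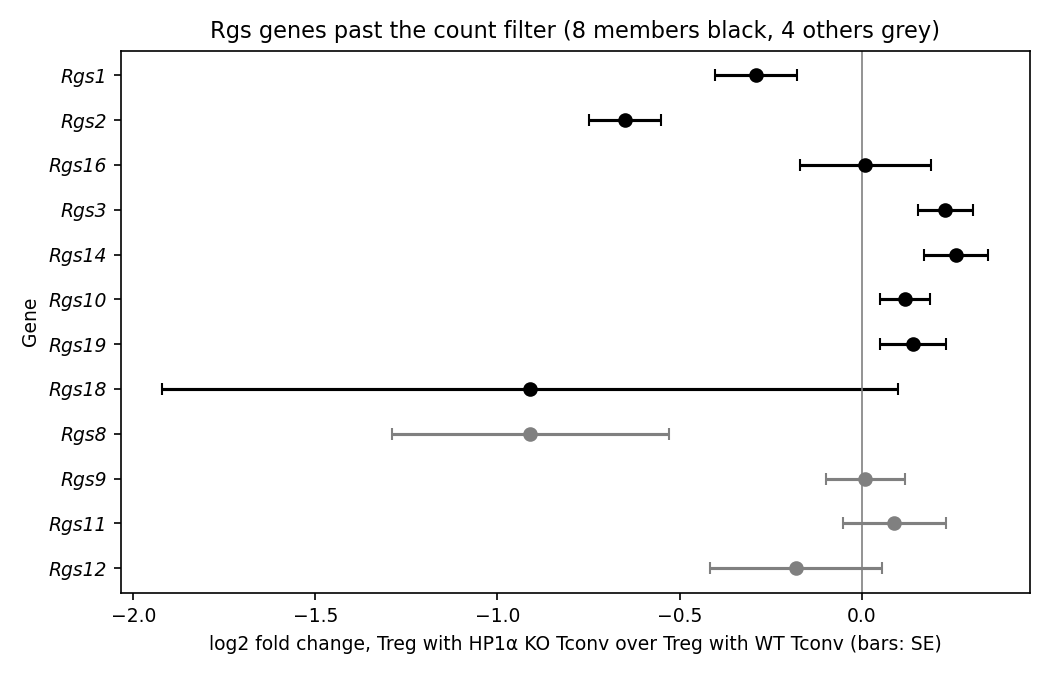
The log2 fold change in edgeR (KO relative to WT libraries) on the horizontal axis for each Rgs gene past the count filter, with bars of 1 standard error, the 8 members in black and the other 4 in grey. Rgs2 is at -0.65 and Rgs1 at -0.29, and Rgs3, Rgs10, Rgs14 and Rgs19 lie between 0.12 and 0.26.

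Rgs18 is known from platelets, megakaryocytes and other myeloid cells. It had 42, 13 and 223 counts with WT Tconv and 48, 18 and 55 counts with HP1α KO Tconv. WT replicate 3, at 1.91 CPM (95% Wilson interval 1.67 to 2.17), was above the other 5 libraries, of which the highest was at 0.623 CPM (0.479 to 0.811). The log2 fold change was -0.91 ± 1.01 (SE), and without that library it was 0.63, so its sign rested on 1 library. It was -0.53 without KO replicate 2. The order of the libraries by Rgs18 (replicates 3, 1 and 2 in each group) was also their order by the red cell, neutrophil, monocyte and macrophage, and B cell lists. In the KO replicates it was not their order by the megakaryocyte and platelet list (2, 3 and 1) or by the plasma cell, dendritic cell, NK cell and CD8 lists. The megakaryocyte and platelet list was at 3.77 to 6.56 CPM with WT Tconv and 3.93 to 4.27 CPM with HP1α KO Tconv, mostly from Itga2b, and of its 10 genes 5 were detected in every library, while Gp1bb was at 0 in 5 of 6 libraries. The part of other cells in the level of Rgs18 was not tested.

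**Figure D3:**
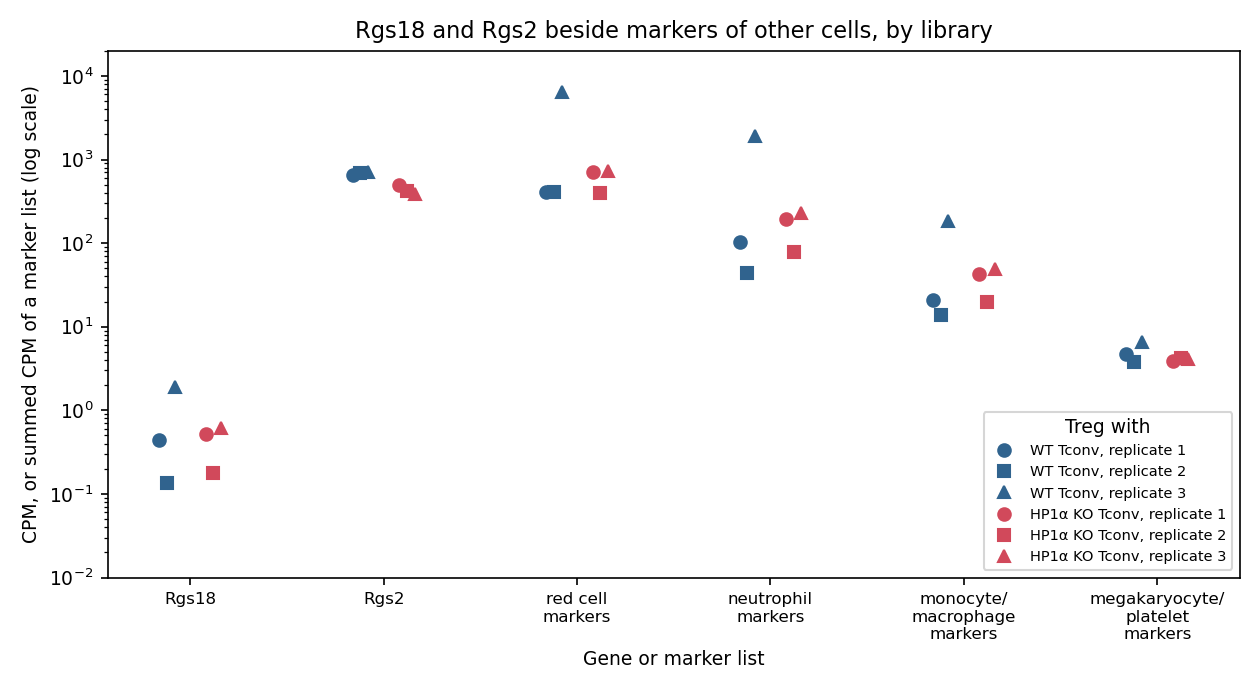
CPM of Rgs18 and Rgs2 and summed CPM of 4 marker lists of other cells (log axis) in each library, with colour for the group and marker shape for the replicate number. WT replicate 3 (blue triangle) is at 1.91 CPM for Rgs18, 6355 CPM for the red cell list and 1886 CPM for the neutrophil list, above the other 5 libraries, whereas its Rgs2 level of 705 CPM is close to the other 2 of its group.

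All 8 members passed the filter on low counts. Of these, 0 passed the quasi-likelihood test of edgeR at a Benjamini-Hochberg adjusted p under 0.05, and 0 of 18321 genes (0%) passed. Without adjustment 4 members had p under 0.05, 2 lower and 2 higher with HP1α KO Tconv, against 14.5% of all genes tested, 7.52% lower and 6.98% higher. DESeq2, the tool used in the study, gave an adjusted p-value under 0.05 to 1 of the 7 members for which it computed one, against 4.35% of 12097 genes, 3.03% lower. The 526 genes behind that share became 181 without WT replicate 3. DESeq2 was not run with any other library left out, so this fall cannot be set against theirs. The study called a gene only if its absolute log2 fold change was also over 1, which no member reached. It reported that it detected no effect of HP1α-deficient Tconv on how Treg were programmed. The groups did not overlap for 5 members, lower in 2 (Rgs1 and Rgs2) and higher in 3 (Rgs3, Rgs10 and Rgs14), against 23% of genes tested, 11.6% lower and 11.5% higher. Since the contrast was used in choosing the family, nothing is read from these counts. The median log2 fold change was 0.07 over the 8 members and -0.01 over all genes tested.

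Because the log2 fold changes of the members differed in sign, the make-up of the Rgs transcript pool was described by ratios of counts within a library, which do not depend on scaling between libraries. Rgs2 made up 19.0%, 17.0% and 19.5% of the summed counts of the 8 genes with WT Tconv and 16.4%, 12.4% and 13.0% with HP1α KO Tconv. Rgs1 made up 57.6% to 62.9% and 55.6% to 60.1%, with overlapping groups. The count ratio of Rgs2 to Rgs3 was 3.51, 3.21 and 3.70 with WT Tconv and 2.24, 1.81 and 1.61 with HP1α KO Tconv. All these ratios share Rgs2, whose lower level chose the family, so they restate that choice and nothing is read from how many separate the groups. For Rgs2 to Rgs1 the ratio overlapped between groups, at 0.319, 0.270 and 0.338 against 0.296, 0.208 and 0.217. Summed over the 8 genes, the level was 3679 ± 324 CPM with WT and 3104 ± 233 CPM with KO Tconv (SD, n = 3), and the groups were barely apart, since KO replicate 2 reached 3372 CPM and WT replicate 1 was at 3388 CPM.

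**Figure D4:**
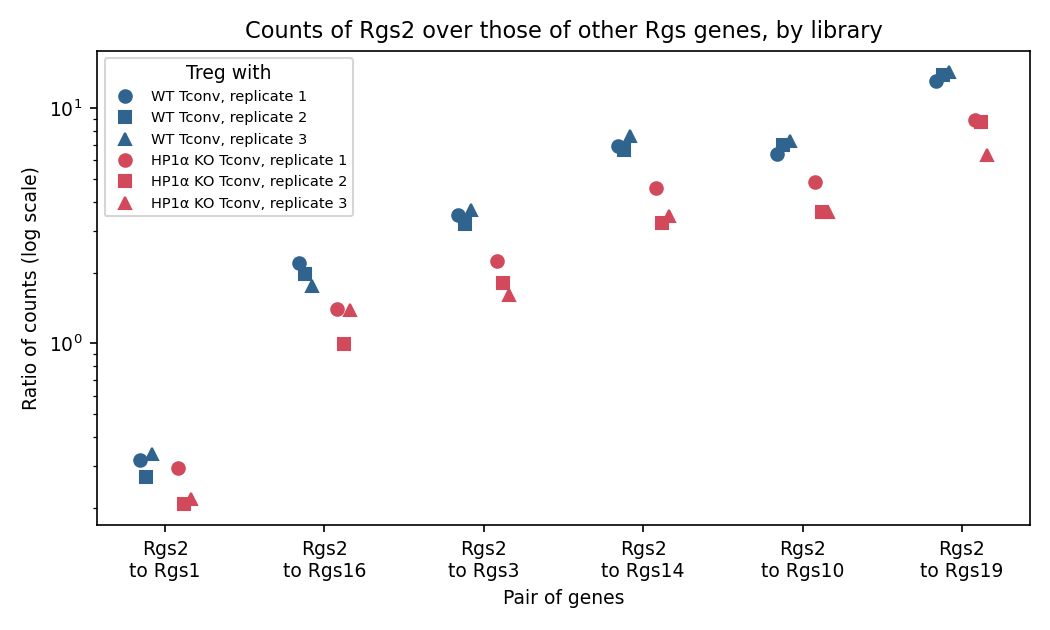
Ratio of the counts of Rgs2 to those of 6 other Rgs genes (log axis) in each library, with colour for the group and marker shape for the replicate number. All ratios share Rgs2, whose lower level chose the family. That to Rgs1 is at 0.270 to 0.338 with WT Tconv and 0.208 to 0.296 with HP1α KO Tconv.

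The genes around Rgs2 were then examined. Within 1 Mb on each side of its start, 14 genes were in the table and 11 passed the count filter, of which 3 were Rgs2, Rgs1 and Rgs18. The smallest edgeR adjusted p among the other 8 was 0.209, and of these 8 Cdc73 and Uchl5 were lower with HP1α KO Tconv without overlap, where 11.6% of all genes tested were. Cdc73, a subunit of the PAF1 transcription complex whose start is 301 kb away, averaged 51.8 ± 2.7 and 40.4 ± 4.1 CPM (SD, n = 3 each), and its log2 fold change was -0.36 ± 0.09 (SE), with an edgeR adjusted p of 0.209. Uchl5, a deubiquitinase of the proteasome, averaged 29.1 ± 1.77 and 22.2 ± 6.24 CPM, with an edgeR adjusted p of 0.454. Both were named after their values had been seen. Glrx2, a mitochondrial glutaredoxin that lies beside Cdc73, differed by 0.01 ± 0.0866 (SE) on the log2 scale. Rgs13, which lies between Rgs2 and Rgs1 and is known from germinal centre B cells, had 7 counts in WT replicate 3 and 0 in the other 5 libraries, where 3 counts would be 0.0304 to 0.0343 CPM.

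The genes with the pattern most like that of Rgs2 were found by the root mean square difference of log2 CPM, centred on the mean of each gene, over the 6 libraries and among 8847 genes with a mean of at least 10 CPM. These were Skil (0.0686), Kctd12 (0.0762), Gm42748 (0.0774), Got1 (0.0791) and Frat2 (0.0816). Skil, which encodes SnoN, a negative regulator of Smad signalling, was at 490.5, 549.5 and 560.0 CPM with WT Tconv and at 391, 359.5 and 284 CPM with HP1α KO Tconv. Skil was chosen for this likeness, so being lowest in KO replicate 3, as Rgs2 was, restates the choice. Among the Rgs genes Rgs1 came nearest, with a difference of 0.265 and rank 986, and Rgs14 was the farthest of those with at least 10 CPM, with a difference of 0.488 and rank 8152.

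Of 14 further Rgs symbols listed, 11 were in the table and 4 passed the filter. In edgeR 0 of the 4 passed and 1, Rgs8, had an unadjusted p under 0.05 and was lower, as 7.52% of all genes tested were, and in DESeq2 0 of the 3 with an adjusted p passed, Rgs8 having none. Rgs12, a large multidomain relative of Rgs14, was at 24.0 ± 7.75 CPM with WT and 21.2 ± 2.93 CPM with KO Tconv (SD, n = 3). Its highest library was WT replicate 3, at 32.8 CPM, and without it the log2 fold change turned from -0.18 to 0.11. Rgs9, best known from photoreceptors and striatum, was at 12.4 ± 1.26 CPM with WT and 12.5 ± 0.687 CPM with KO Tconv (SD, n = 3), and Rgs11 was at 3.96 ± 0.395 CPM with WT and 4.23 ± 0.24 CPM with KO Tconv (SD, n = 3). Rgs8, a neighbour of Rgs16, was at 0.746 ± 0.222 CPM with WT and 0.398 ± 0.164 CPM with KO Tconv (SD, n = 3) with overlapping groups, a log2 fold change of -0.91 ± 0.38 (SE), edgeR adjusted p = 0.329.

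Genes that work with RGS proteins were described in 7 further lists: proteins with RGS-like domains, Gα subunits, Gβ and Gγ subunits, receptor kinases and arrestins, G protein chaperones and related regulators, effectors, and receptors of lymphocytes. Together with the other Rgs genes the 8 lists held 135 genes, of which 107 were tested. In edgeR 0 had an adjusted p-value under 0.05, 13 were lower and 10 higher with HP1α KO Tconv at an unadjusted p-value under 0.05, where 7.52% of all genes tested were lower and 6.98% higher. DESeq2 gave 88 of them an adjusted p-value, which was under 0.05 for 7 (4 lower and 3 higher), against 4.35% of all genes. All 7 were under the fold change threshold of the study, an absolute log2 fold change of 1. The median log2 fold change of a list lay between -0.08 and 0.11, against -0.01 over all genes tested.

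Among the 12 Gα genes tested, a family that includes the substrates of RGS proteins, 0 passed in edgeR while 4 had an unadjusted p under 0.05, 3 of them lower, against 14.5% of all genes and 7.52% lower. DESeq2 called 2 of the 10 with an adjusted p, against 4.35% of all genes. Gna13 was at 673, 652 and 664 CPM with WT Tconv and 522, 547 and 422 CPM with HP1α KO Tconv, without overlap. Its log2 fold change was -0.42 ± 0.1 (SE), edgeR adjusted p = 0.209 and DESeq2 adjusted p = 0.0115. Gnai2, the main Gi subunit of lymphocytes, was at 396 ± 7.51 CPM with WT and 433 ± 4.59 CPM with KO Tconv (SD, n = 3), a log2 fold change of 0.13, edgeR adjusted p = 0.375. Gna11, of the Gq class, had one of 0.35, edgeR adjusted p = 0.241. Gnal also passed in DESeq2, with a log2 fold change of -0.68, edgeR adjusted p = 0.262 and DESeq2 adjusted p = 0.0311, and was named after its values had been seen.

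Of the 11 Gβ and Gγ genes tested, 0 passed in edgeR, 0 of the 9 with an adjusted p passed in DESeq2 and 2 had an unadjusted p-value under 0.05 in edgeR, against 14.5% of all genes tested. Gnb2 was at 195 ± 10.1 CPM with WT and 224 ± 7.86 CPM with KO Tconv (SD, n = 3), edgeR adjusted p = 0.248, and Gng12 had a log2 fold change of -0.46 with one of 0.246. Gnb1 was at 205 ± 8.33 CPM with WT and 175 ± 47.7 CPM with KO Tconv (SD, n = 3), with a low value of 119 CPM in KO replicate 2, without which its log2 fold change went from -0.23 to -0.02. Of 9 genes with RGS-like domains, 0 passed in either tool and 2 had an unadjusted p under 0.05 in edgeR, again against 14.5%. Arhgef1 was at 337 ± 17.7 CPM with WT and 380.1 ± 51.2 CPM with KO Tconv (SD, n = 3), edgeR adjusted p = 0.491, and its log2 fold change of 0.17 was 0.28 without KO replicate 2 and 0.10 without KO replicate 3. Arhgef12 had a log2 fold change of -0.21 and Axin2, a Wnt pathway scaffold, one of 0.26, at adjusted p = 0.262 and 0.268 in edgeR. That of Axin2 was 0.16 without KO replicate 3. Axin1 had one of 0.05, which ranged from 0.03 to 0.09 when single libraries were left out.

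Receptor kinases and arrestins, which end signalling at the receptor, comprised 7 tested genes, of which 0 passed in edgeR while 1 had an unadjusted p under 0.05, against 14.5% of all genes tested, and DESeq2 called 1 of the 6 with an adjusted p, against 4.35%. This gene in both, Grk6, was at 283, 301 and 265 CPM with WT Tconv and 342, 336 and 349 CPM with HP1α KO Tconv. The groups did not overlap, and the log2 fold change was 0.28 ± 0.0696 (SE), edgeR adjusted p = 0.209 and DESeq2 adjusted p = 0.0403. Grk2 had a log2 fold change of 0.06, edgeR adjusted p = 0.71, and one of 0.03 without WT replicate 3. Arrb1 was at 168 CPM in WT replicate 3 and at 86.9 to 101 CPM in the other 5 libraries, and its log2 fold change went from -0.33 to -0.01 without that library. Of the 7 chaperones and related regulators tested, 0 passed in edgeR, 0 of the 5 with an adjusted p passed in DESeq2 and 0 had an unadjusted p-value under 0.05 in edgeR. Among them, Ric8a had a log2 fold change of 0.12, Gpsm3 one of 0.13 and Rgs9bp one of -0.74, at adjusted p = 0.458, 0.784 and 0.488 in edgeR. Without WT replicate 3, Ric8a was at 0.07 and Rgs9bp at -0.46, and Gpsm3 was at 0.33 without KO replicate 2 and -0.03 without KO replicate 3.

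Of the 13 effector genes tested, 0 passed in edgeR, 0 of the 8 with an adjusted p passed in DESeq2 and 3 had an unadjusted p-value under 0.05 in edgeR, all higher with HP1α KO Tconv, where 6.98% of all genes tested were higher. Adcy7, an adenylyl cyclase, was at 365 ± 36.5 CPM with WT and 442 ± 20.4 CPM with KO Tconv (SD, n = 3), a log2 fold change of 0.28 ± 0.0868 (SE), edgeR adjusted p = 0.237. Prex1, a Rac exchange factor driven by Gβγ, had one of 0.07, which ranged from -0.01 to 0.23 when single libraries were left out. Adcy6 was at 23.3 CPM in WT replicate 3 and at 1.21 to 2.42 CPM in the others, and its log2 fold change of -2.28 became 0.00 without that library.

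Receptors of lymphocytes formed the longest list, with 44 genes tested. In edgeR 0 passed, 7 were lower and 3 higher at an unadjusted p under 0.05, against 7.52% and 6.98% of all genes tested. DESeq2 gave 38 an adjusted p-value, which was under 0.05 for 4, against 4.35% of all genes, Cxcr4 and P2ry10 lower and S1pr4 and Gpr34 higher with HP1α KO Tconv. P2ry10, a receptor for lysophosphatidylserine, was at 385, 413 and 366 CPM and at 304, 335 and 289 CPM, a log2 fold change of -0.33, edgeR adjusted p = 0.209 and DESeq2 adjusted p = 0.0263. S1pr4, a sphingosine 1-phosphate receptor, was at 84.4, 91.9 and 76.1 CPM and at 106, 109.8 and 117 CPM, a log2 fold change of 0.40, edgeR adjusted p = 0.209 and DESeq2 adjusted p = 0.00795. Neither gene overlapped between groups. Cxcr4, the receptor for CXCL12, had a log2 fold change of -0.89, edgeR adjusted p = 0.241 and DESeq2 adjusted p = 0.000395, and Gpr34 one of 0.52 with 0.215 and 0.0287, both named after their values had been seen. Ccr2, a chemokine receptor, was at 309.8 ± 26.7 CPM with WT and 332 ± 13.1 CPM with KO Tconv (SD, n = 3), edgeR adjusted p = 0.595.

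**Figure D5:**
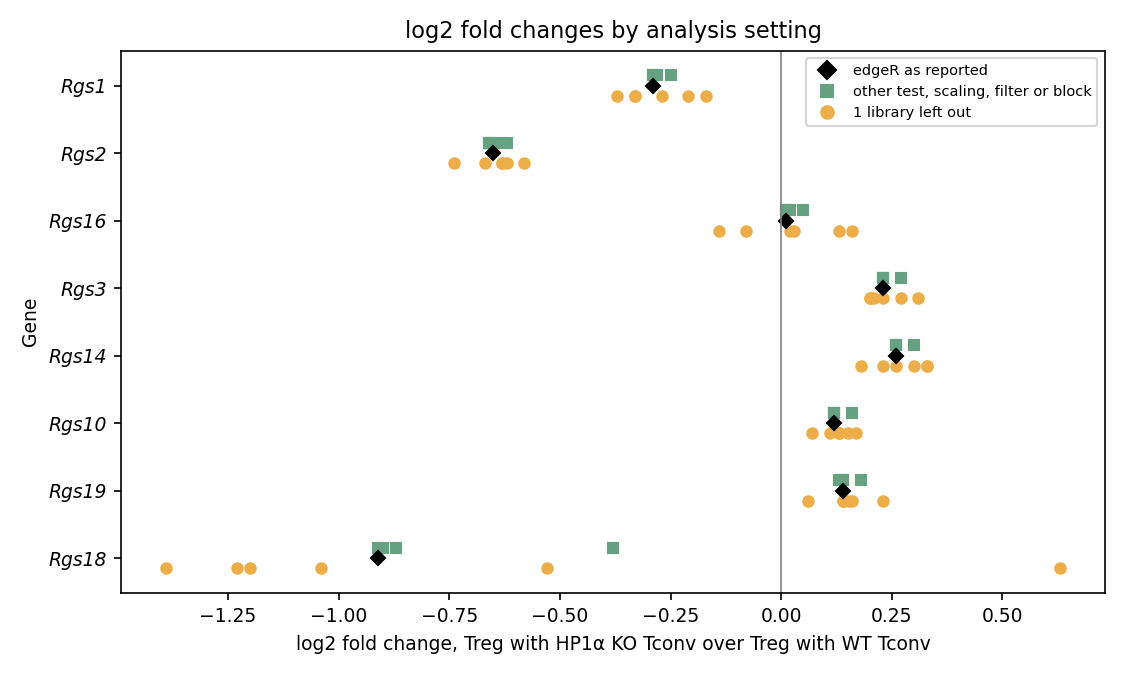
The log2 fold change of each Rgs gene on the horizontal axis as reported (black diamonds), with another test, scaling, filter or block (green squares) and with 1 library left out (yellow circles). Rgs2 stays between -0.74 and -0.58, whereas Rgs18 runs from -1.39 to 0.63.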

How the data were processed

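Total RNA from sorted Treg was sequenced in 6 libraries, 3 per group by the labels. After trimming and STAR alignment to GRCm39, the authors quantified genes with Salmon and deposited estimated counts, which are unnormalized whole numbers. Salmon shares ambiguous reads between genes by a model. Genes were tested with edgeR version 4.0.16 (R version 4.3.3, glmQLFit with robust estimation, legacy method, TMM, filterByExpr, group as sole term) over 18321 genes. CPM uses TMM-scaled totals, and log2 CPM a prior count of 0.5. The standard error (SE) is the size of the log2 fold change divided by the root of F. Alternatives were DESeq2 version 1.42.0, 2 scalings, no filter, a replicate block and the removal of 1 library at a time. DESeq2 without WT replicate 3 and canonical transcript lengths were added once the data were known. Gene positions, exon lengths and promoters came from GENCODE vM39 on GRCm39, which matched 28854 identifiers. Members, lists and rules for naming genes were chosen with earlier results of these data known. Besides the members, each list names the genes with the smallest unadjusted p-value in each direction and the 2 of highest mean CPM, and 5 genes were named for likeness to Rgs2. The fits were run on simulated data with changes larger than those of the members, which does not show how they perform on changes of that size. Intervals cover counting error only.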

Additional observations from a re-analysis of the deposited data

How the results depend on the processing

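The log2 fold change of Rgs2 ranged from -0.74 to -0.58 over the fits that each left out 1 library and from -0.66 to -0.62 over the other alternatives. Rgs1, Rgs3, Rgs10, Rgs14 and Rgs19 kept their sign in all 11 alternatives. Rgs18 ranged from -1.39 to 0.63. The count of members with an adjusted p-value under 0.05 was 1 with DESeq2, with DESeq2 without WT replicate 3, and with edgeR without a filter beyond 1 count, and 0 in the other alternatives. Over all genes that count was 526 with DESeq2, 181 with DESeq2 without that library, 38 without the filter and 0 to 2 when each library was left out of edgeR. With the replicate block it was 1 over all genes and 0 over the members, and the log2 fold change of Rgs2 was -0.66. Whether the replicate numbers pair the samples is not given in the sources used here. Deviations from the group means correlated at -0.0357, 0.178 and 0.109 for same-numbered libraries and at -0.214 to 0.121 for the others. With 3 libraries per group and a library of each group standing apart, these values cannot decide it. DESeq2 gave 2 Gα genes, 1 receptor kinase and 4 receptors, and no alternative run on the other lists changed their count of 0. DESeq2 without WT replicate 3 was not run on any of these lists. When each library was left out in turn, signs turned for Rgs9 (-0.06 to 0.07, negative without WT replicate 2 and, at -0.03, without KO replicate 2), Rgs12 (-0.33 to 0.11) and Adcy6 (-2.76 to 0.00) without WT replicate 3, and Gpsm3 (-0.03 to 0.33) and Prex1 (-0.01 to 0.23) without KO replicate 3. The cause was not tested. With 13 to 223 counts, Rgs18 was the member most limited by depth.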
